A study of Mus musculus with 16 samples.

Results

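Interferon-stimulated genes and interferon regulatory factors (IRFs) were followed in the aortic wall of mice infused with saline or with angiotensin II. The set held the protein-coding genes of the deposited expression table whose names belong to the interferon receptors, the STAT factors they signal through, the IRFs and their IRF2-binding partners, and the induced families Ifi, Ifit, Ifitm, Oas, Mx, Isg, Gbp and Irg, 84 of 54532 genes in all. Of these, 67 had a mean of at least 0.5 FPKM over the 16 samples and were tested. The other 17 were below that level, and 4 of them (Ifitm7, Oas1d, Ifi202b and Ifi44l) were listed at 0 in every sample. Another 6 genes carry such names with a different gene type in the table and were not counted, among them Ifi30 with 24.4 to 129 FPKM. FPKM is the number of sequenced fragments scaled by transcript length and by library depth, so levels can be compared between genes.

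Interferons are secreted proteins that bind paired receptors, Ifnar1 with Ifnar2 for type I and Ifngr1 with Ifngr2 for type II. The receptors act through Janus kinases on STAT factors, which enter the nucleus as pairs or, joined with IRF9, as the ISGF3 complex. ISGF3 and the IRFs bind the interferon-stimulated response element in the promoters of antiviral genes, while STAT pairs bind a different palindromic site. In the arterial wall endothelial cells, smooth muscle cells and resident or recruited leukocytes can all respond to interferon.

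All samples were aortas of male Apoe-/- C57BL/6j mice, 8 to 12 weeks old, with the adventitia, the outer layer of the wall, taken off. Mice without apolipoprotein E have high plasma cholesterol, and every sample carried this genotype, so that the effect of Ang II in mice with intact Apoe was not analysed here. The library names of these samples begin with WT, and how that tag relates to the genotype was not checked. Saline or Ang II, a hormone that constricts arteries, was given by osmotic pump for 7 days, and there were 8 samples in each group. The dose of Ang II was 1000 ng/kg/min. The labels number the samples and do not name the mouse behind each. The spread that the p-values rest on is that between these 16 samples, which may in part be technical. The title of the study names SLC1A5, a glutamine transporter, in aortic aneurysm and dissection, and the interferon genes were outside that title.

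The FPKM totals of the libraries corresponded to 14606864 to 19988730 reads. In a principal component analysis the first component held 46.9% of the variance and set Saline 8, Saline 7 and Saline 2 apart from the other 13 samples. The summed FPKM of 7 smooth muscle markers was 8966 to 15340 with saline and 6289 to 10666 with Ang II, and 4 of them (Des, Lmod1, Myh11 and Smtn) fell. The 8 endothelial markers summed to 597 to 1528 and 207 to 1319 FPKM, with the lowest value in Ang II 2. They went both ways: Cldn5, Egfl7 and Pecam1 fell and Erg rose. The 12 macrophage and monocyte markers summed to 25.2 to 727 and 72.3 to 765 FPKM, and 4 of them (Adgre1, Ccr2, Csf1r and Itgam) rose. The 6 dendritic cell markers summed to 7.33 to 26.3 and 11.5 to 25.2 FPKM. The 8 T and NK cell markers summed to 0.327 to 7.94 and 0.634 to 5.45 FPKM, and no marker of these lists was at 0 in all samples. Apoe itself was listed at 6.81 to 110 FPKM, and since the deleted part of the gene is not given in the sources used here, this level checks no label. In bulk tissue, fewer cells of a type and less RNA per cell cannot be told apart.

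Response elements near the start sites are shown for the members that passed the test with an element in their promoter, because they place the site that IRFs and ISGF3 bind beside the direction of change. The promoters were 250 bases before to 50 after the start site (RefSeq, GRCm38.p6), and 66 of the 84 members had one. The core searched was GAAANNGAAA on both strands, and it was present in 34 of the 66 members (51.5%) against 3.99% of 27025 genes with a promoter. The palindrome TTCNNNGAA of STAT pairs was present in 18 of the 66 (27.3%) against 9.55% of genes, and it overlapped the first core in 2 member promoters. Among members with a promoter, the first core was found in 1 of 3 that rose, 3 of 10 that fell and 23 of 39 that did not pass. The promoter of Irf7 held no such core. Each stretch below is printed 5′ to 3′ on the strand of its gene, with the core in capitals, and cores that overlap form a single longer run. Ifi207 rose, and Igtp, Oas1c and Bst2 fell. Isg15 and Rsad2 did not pass the test and were added after their high values in Ang II 1, described further on, were seen.
Ifi207 (chr1:173741801-173741890, minus strand): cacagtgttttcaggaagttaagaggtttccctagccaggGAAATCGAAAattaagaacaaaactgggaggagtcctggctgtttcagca
Igtp (chr11:58199482-58199571, plus strand): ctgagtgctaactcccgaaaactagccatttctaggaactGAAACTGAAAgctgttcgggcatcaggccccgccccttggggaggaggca
Oas1c (chr5:120812573-120812668, minus strand): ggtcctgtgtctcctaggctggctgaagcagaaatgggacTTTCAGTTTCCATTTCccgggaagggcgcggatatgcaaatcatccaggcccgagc
Bst2 (chr8:71537547-71537642, minus strand): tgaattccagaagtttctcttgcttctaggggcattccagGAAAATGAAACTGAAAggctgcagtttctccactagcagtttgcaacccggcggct
Isg15 (chr4:156200835-156200936, minus strand): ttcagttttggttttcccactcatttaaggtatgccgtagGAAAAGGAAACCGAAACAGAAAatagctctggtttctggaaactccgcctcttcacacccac
Rsad2 (chr12:26456523-26456612, minus strand): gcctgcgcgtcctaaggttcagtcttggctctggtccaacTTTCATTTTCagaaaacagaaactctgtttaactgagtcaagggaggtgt
The core lay 41 bases before the start site in Ifi207 and 34 bases before it in Igtp. Oas1c had its 2 overlapping cores on the opposite strand, and Bst2 had 2 and Isg15 3 on the strand of the gene. A match of letters describes the promoter and does not show that a factor binds there.

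With Ang II, 4 members rose and 14 fell, and the other 49 tested members did not pass the test. The test was limma on log2(FPKM + 1), two-sided and adjusted over 15007 genes by Benjamini-Hochberg, with calls at an adjusted p under 0.05. Over all tested genes 9.54% rose and 24.9% fell, so that neither count of members stood above the background. The median log2 fold change was -0.18 over the members and -0.12 over all tested genes. Scaling by median ratios moved the median of all genes to -0.01 and gave 8 members higher and 11 lower. Without overlap between the groups were 2 members, Igtp and Ifi35, both lower, and 5.62% of all tested genes were lower in that way. None was higher in that way, against 2.74% of all tested genes. The members that rose were the receptor subunit Ifngr2, the factor Irf5, Ifi27l2b and Ifi207. Those that fell included Irf1, Irf3, Irf2bp1, Irf2bp2 and several interferon-induced GTPases.

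**Figure D1:**
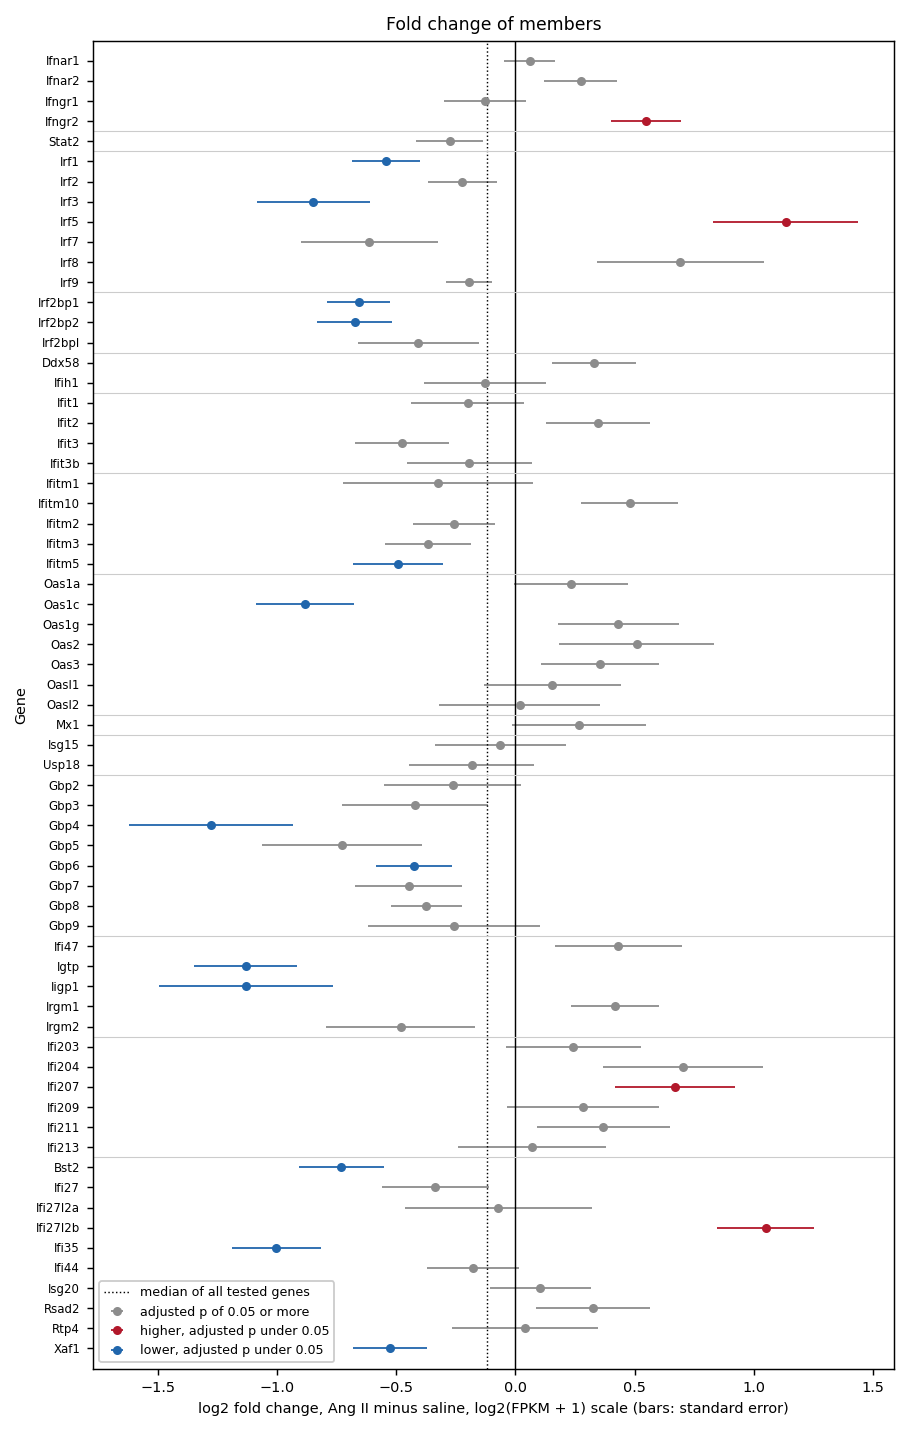
Log2 fold change (Ang II minus saline, log2(FPKM + 1) scale) of 65 tested members, with standard errors, grouped by class from receptors at the top to other induced genes at the bottom. Red points rose and blue points fell at an adjusted p under 0.05, and the dotted line is the median of all tested genes at -0.12.

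Among the receptors, the signal-transducing subunit of the type II receptor was the member that rose. Ifngr2 (chromosome 16, 91547072 to 91565623, GRCm38) ranged from 19.1 to 44.1 FPKM with saline (median 31.8) and from 38.3 to 57.3 with Ang II (median 43.8). The groups overlapped, and 4 of the 8 Ang II samples lay above every saline sample. The log2 fold change was 0.55 ± 0.15 (SE), with an adjusted p of 0.0084 in limma. With a score of adipocyte markers as a covariate it was 0.42, and the adjusted p was 0.0501; the adipocyte markers summed to 13.5 to 156 FPKM with saline and 6.16 to 58.5 with Ang II, and 1 of the 6 that were tested, Fabp4, fell.

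The other 3 receptor subunits did not pass the test. Ifngr1, which binds the type II ligand, had the highest level of the 4, 46.5 to 113 FPKM with saline (median 76.8) and 42.7 to 95.5 with Ang II (median 68.4), and a log2 fold change of -0.13 ± 0.17 (SE). The type I subunit Ifnar1 varied little, 16.7 to 30.7 (median 25.3) against 23.5 to 29.3 FPKM (median 26.0). Its partner Ifnar2 ranged from 7.59 to 19.7 (median 13.4) and from 11.2 to 18.9 FPKM (median 16.05). The log2 fold change of Ifnar2 was 0.27 ± 0.15 (SE, adjusted p 0.176 in limma). It passed as higher under scaling by median ratios (0.41, adjusted p 0.0349 in limma) and quantile normalization (0.39, adjusted p 0.0335). The order of the median levels was Ifngr1, Ifngr2, Ifnar1 and Ifnar2 in both groups. With saline the ranges of Ifngr2, Ifnar1 and Ifnar2 all overlapped each other, and with Ang II those of Ifngr1 and Ifngr2 did.

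Stat2, which forms part of ISGF3, ranged from 15.98 to 33.1 FPKM with saline (median 18.9) and from 14.96 to 20.05 with Ang II (median 16.6). It did not pass the test (log2 fold change -0.28 ± 0.14 SE, adjusted p 0.138 in limma). The highest saline values were in Saline 8 and Saline 2, and the other 6 saline samples lay within or just above the Ang II range.

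The IRFs moved in both directions. Of 8 that were tested, 1 rose and 2 fell, where 9.54% and 24.9% of all tested genes did. Irf4 was too low to test. Irf5, a factor best known in macrophages and dendritic cells, ranged from 0.664 to 5.41 FPKM with saline (median 2.75) and from 3.99 to 14.3 with Ang II (median 6.48). The 2 lowest saline values were those of Saline 7 and Saline 8, and the highest of all was in Ang II 1. Its log2 fold change was 1.13 ± 0.30 (SE), with an adjusted p of 0.00853 in limma, and 14.1% of its exon bases are shared with Tnpo3. With a score of the macrophage and monocyte markers as a covariate, the value was 0.47 and the adjusted p 0.122. Those markers summed highest in Ang II 1 (765 FPKM) and Saline 1 (727 FPKM), and all 12 had a positive log2 fold change, of which 4 passed.

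Irf1, an early target of interferon signalling, fell from 18.9 to 34.0 FPKM (median 30.4) to 13.5 to 25.4 FPKM (median 20.4). The groups overlapped through Saline 7 and Saline 8, which had 18.9 and 21.9 FPKM where the other saline samples had at least 29.5. The log2 fold change was -0.54 ± 0.14 (SE), with an adjusted p of 0.00769 in limma. Irf3, which is activated directly by virus sensing, had 66.6 to 263 FPKM with saline (median 85.7) and 46.3 to 81.8 with Ang II (median 60.2). Its 3 highest values were in Saline 8, Saline 7 and Saline 2, the samples that stood apart over all genes. The log2 fold change was -0.85 ± 0.24 (SE, adjusted p 0.0108 in limma), and it no longer passed with the adipocyte score (-0.63, adjusted p 0.0649) or the macrophage score (-0.79, adjusted p 0.0603) as a covariate.

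Irf7, the IRF that amplifies type I responses, did not pass. Of 30 alternative analyses it passed in 1, the one without Ang II 1. It had 4.98 to 10.8 FPKM with saline (median 6.45) and 1.86 to 16.8 with Ang II (median 4.05). The highest value of all 16, 16.8 FPKM, was in Ang II 1, and 6 of the other 7 Ang II samples lay below every saline sample. The highest saline values, 10.8, 10.8 and 10.5 FPKM, were in Saline 2, Saline 7 and Saline 8, the samples that stood apart over all genes. The other saline samples had at most 6.49 FPKM. The log2 fold change of Irf7 was -0.61 ± 0.29 (SE, adjusted p 0.107 in limma), and without Ang II 1 it was -0.86 (adjusted p 0.00504). Since Ang II 1 held the highest value, leaving it out could only move the fold change downward.

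Irf2, Irf9 and Irf8 did not pass the test either. Irf2, which competes with IRF1 for its sites, had 11.6 to 22.1 (median 18.8) and 9.43 to 18.3 FPKM (median 16.8). Irf9, the DNA-binding part of ISGF3, had 12.1 to 19.4 (median 13.7) and 11.2 to 14.0 FPKM (median 11.9). Irf8, a factor of monocytes and dendritic cells, had 0.362 to 4.83 (median 1.40) and 1.17 to 9.55 FPKM (median 3.10), with the highest value again in Ang II 1.

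The IRF2-binding proteins, co-repressors named for their contact with IRF2, were negative as a group, and 2 of the 3 fell. Over all tested genes 9090 of 15007 were negative and 24.9% fell. Irf2bp1 had 11.7 to 22.2 FPKM with saline (median 18.0) and 8.23 to 12.3 with Ang II (median 10.2), a log2 fold change of -0.66 ± 0.13 (SE, adjusted p 0.00128 in limma). Irf2bp2 had 8.42 to 19.3 (median 11.2) and 5.15 to 10.3 FPKM (median 7.19), a log2 fold change of -0.67 ± 0.16 (SE, adjusted p 0.00358 in limma), and 20.5% of its exon bases are shared with Gm26759. In both genes the groups overlapped only slightly, with 5 and 7 of the 8 Ang II samples below every saline sample. Irf2bpl had 5.56 to 32.2 (median 16.1) and 7.95 to 17.4 FPKM (median 12.6) and did not pass.

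The largest fitted decreases of members were in interferon-induced GTPases. These enzymes are typical targets of type II interferon and act on the vacuoles of intracellular microbes. Gbp4 (chromosome 5, 105115767 to 105139586) had 3.44 to 16.7 FPKM with saline (median 12.8) and 0.633 to 7.73 with Ang II (median 3.94). Its log2 fold change was -1.28 ± 0.34 (SE, adjusted p 0.0088 in limma), while the Wilcoxon test gave an adjusted p of 0.0573. The saline group was split, with Saline 7 (3.93 FPKM) and Saline 8 (3.44 FPKM) at the level of Ang II and the other 6 samples at 8.43 FPKM or more.

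Igtp, also called Irgm3 (chromosome 11, 58199556 to 58207591), separated the groups. It had 5.09 to 14.1 FPKM with saline (median 9.26) and 1.05 to 4.64 with Ang II (median 3.67), and all 8 Ang II samples lay below every saline sample. Its log2 fold change was -1.13 ± 0.22 (SE, adjusted p 0.000788 in limma), and 8.01% of its exon bases are shared with Irgm2. Iigp1 (chromosome 18, 60376029 to 60392627) had 1.18 to 14.7 (median 9.33) and 0.628 to 5.32 FPKM (median 3.23). The groups of Iigp1 overlapped through Saline 7 and Saline 8, with a log2 fold change of -1.13 ± 0.36 (SE, adjusted p 0.0235 in limma). That call was lost without the filter on low values (adjusted p 0.0585), in the Wilcoxon test (adjusted p 0.0726) and with the macrophage score (adjusted p 0.0576).

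All 8 tested guanylate-binding proteins had a negative log2 fold change, from -1.28 in Gbp4 to -0.26 in Gbp9, and 2 of them, Gbp4 and Gbp6, fell. Over all tested genes 9090 of 15007 were negative and 24.9% fell, so the 2 calls were near the background. Gbp2, Gbp3, Gbp5 and Gbp7 lie together on chromosome 3 (142493978 to 142638008), and Gbp4, Gbp6, Gbp8 and Gbp9 on chromosome 5 (105014150 to 105293698). Gbp6, with 0.201 to 1.43 and 0.0518 to 0.649 FPKM, was barely past the threshold (adjusted p 0.0486 in limma), and 29.0% of its exon bases are shared with Gm43302. The family members are near copies of each other, so reads could have been split between them in counting. Of the immunity-related GTPases, 2 of 5 fell, against 24.9% of all tested genes. Ifi47 and Irgm1 had positive values that did not pass (0.43 ± 0.27 and 0.42 ± 0.19, SE).

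In all 13 of these GTPase genes, the 2 lowest saline values were those of Saline 7 and Saline 8, and the lowest Ang II value was that of Ang II 2. Gbp2, the highest of the family, had 9.60 and 5.74 FPKM in Saline 7 and Saline 8 and 16.5 to 25.5 in the other saline samples, and 4.89 FPKM in Ang II 2 against 12.3 to 18.0 in the other Ang II samples. Saline 7 and Saline 8 stood apart over all genes and were left out for that reason. Since they also held the lowest saline values of these genes, leaving them out could only move the fold changes downward. With Saline 7 and Saline 8 left out, all 8 tested guanylate-binding proteins and 3 of the 5 immunity-related GTPases passed the test as lower. Over all tested genes 26.6% then did. Gbp5 had a log2 fold change of -1.23 ± 0.17 (SE, adjusted p 7.18e-05 in limma) in that fit, against -0.73 ± 0.34 (adjusted p 0.102) with all samples. Without Saline 2 as well, 7 of the 8 and 3 of the 5 passed, against 26.3% of all tested genes. With only Ang II 2 left out, 1 of the 8 and 2 of the 5 passed as lower. Irgm1 then passed as higher (0.52, adjusted p 0.0292 in limma). Ang II 2 held the lowest Ang II values of these genes, so that step could only move the fold changes upward. The share of all tested genes in that fit is not reported here. The endothelial markers summed to 1139 FPKM in Saline 7, 655 in Saline 8 and 207 in Ang II 2. With the endothelial score as a covariate, Gbp4 (-1.08), Igtp (-1.04) and Iigp1 (-0.94) kept their calls, with adjusted p of 0.000244, 0.000131 and 0.00447 in limma. Gbp6 kept its call too (-0.36, adjusted p 0.0327 in limma). In the same fit Ifi47 (0.56, adjusted p 0.0203) and Irgm1 (0.48, adjusted p 0.0279) passed the limma test as higher.

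**Figure D2:**
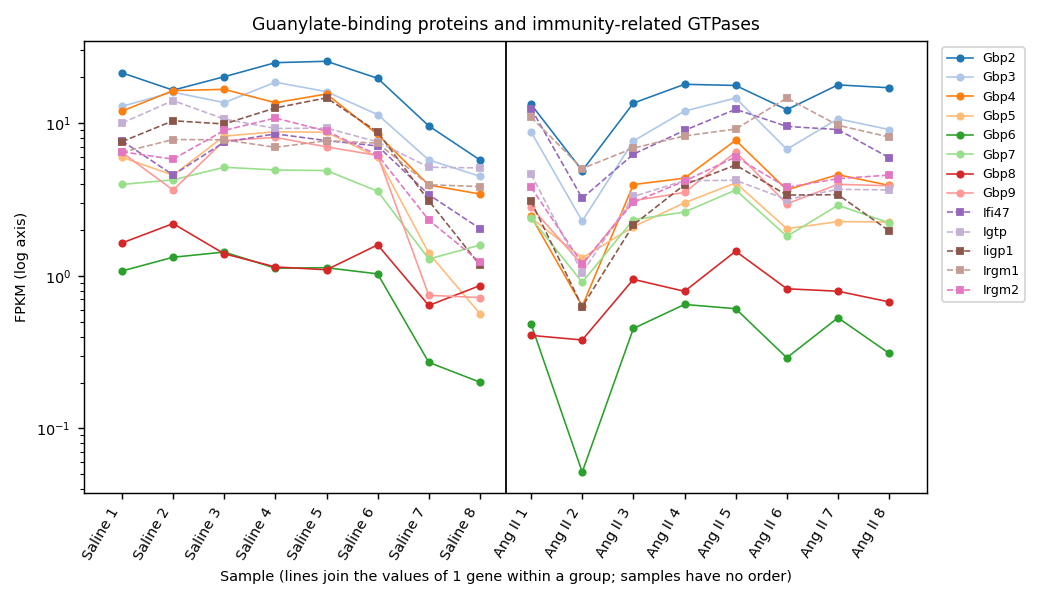
FPKM (log axis) of 8 guanylate-binding proteins (circles) and 5 immunity-related GTPases (squares) in the 16 samples. Saline 7 and Saline 8 hold the 2 lowest saline values and Ang II 2 the lowest Ang II value of all 13 genes, and Gbp4 falls from a median of 12.8 with saline to 3.94 with Ang II.

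Among the other induced genes, Ifi35 had the second member profile without overlap. Ifi35, a partner of NMI in interferon signalling, had 21.1 to 59.2 FPKM with saline (median 30.3) and 12.5 to 20.5 with Ang II (median 16.1). Its log2 fold change was -1.003 ± 0.19 (SE, adjusted p 0.000665 in limma), and Gm11626 shares 16.8% of its exon bases. Saline 7 and Saline 8 were here the highest samples, at 53.4 and 59.2 FPKM, unlike in the GTPase genes. Bst2, or tetherin, which holds budding virus at the cell surface, had 66.7 to 135 (median 85.4) and 31.6 to 75.1 FPKM (median 48.3), a log2 fold change of -0.73 ± 0.18 (SE, adjusted p 0.00476 in limma). In Bst2, 6 of the 8 Ang II samples lay below every saline sample.

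Xaf1, an interferon-induced gene that promotes apoptosis, had 5.58 to 8.46 FPKM with saline (median 6.88) and 2.24 to 7.56 with Ang II (median 4.94). Ang II 1 was the 1 Ang II sample inside the saline range, and the log2 fold change was -0.53 ± 0.16 (SE, adjusted p 0.0152 in limma). The call on Xaf1 was lost under scaling by median ratios (adjusted p 0.0714), under quantile normalization (adjusted p 0.056) and without Saline 2, Saline 7 and Saline 8 (adjusted p 0.0662).

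Ifi27l2b, a paralog of Ifi27, rose from 1.36 to 6.76 FPKM (median 3.00) to 5.32 to 10.6 FPKM (median 7.06). The 2 highest saline values were in Saline 8 and Saline 7, and 5 of the 8 Ang II samples lay above every saline sample. Its log2 fold change was 1.05 ± 0.20 (SE, adjusted p 0.000948 in limma), and with the macrophage score it was 1.17. Its neighbours in the family did not follow. Ifi27l2a had 8.78 to 55.4 (median 18.4) and 10.4 to 62.8 FPKM (median 17.2), and Ifi27, the most abundant of all members, had 244 to 903 (median 341) and 246 to 389 FPKM (median 314). Ifi44, Isg20, Rsad2 and Rtp4 did not pass either, with log2 fold changes of -0.18 to 0.32.

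Of the OAS enzymes, which make the 2-5A messenger that activates RNase L, 1 of 7 tested fell, against 24.9% of all tested genes. Oas1c had 1.70 to 7.16 FPKM with saline (median 2.99) and 0.619 to 2.02 with Ang II (median 1.46), a log2 fold change of -0.88 ± 0.21 (SE, adjusted p 0.00377 in limma). The other 6 had positive values between 0.02 (Oasl2) and 0.51 (Oas2) that did not pass. Without Ang II 1, 3 of the 7 OAS genes were negative, and their median log2 fold change went from 0.24 to 0.01. Oas1 genes are close copies in a cluster, and their reads could have been split in counting. Gm43069 shares 9.44% of the exon bases of Oas1c.

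The IFITM proteins of cell membranes, which block virus entry, were among the most abundant members. Ifitm3 had 144 to 315 FPKM with saline (median 175) and 95.2 to 224 with Ang II (median 157), and Ifitm2 122 to 327 (median 139) and 102 to 161 (median 134). Neither passed the test. Ifitm5, a bone gene that is not induced by interferon in most cells, fell by 0.49 ± 0.19 (SE) on the log2 scale from 0.464 to 2.31 FPKM to 0.150 to 0.994 FPKM (adjusted p 0.0499 in limma). That is 2 to 30 reads a sample, and 29.7% of its exon bases are shared with Gm45717.

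The RNA sensors Ddx58 (RIG-I) and Ifih1 (MDA5) did not pass, with 6.57 to 17.0 and 10.2 to 18.6 FPKM for Ddx58 and 0.448 to 3.60 and 0.380 to 3.09 FPKM for Ifih1. Ddx58 passed the limma test as higher under scaling by median ratios (adjusted p 0.041) and quantile normalization (adjusted p 0.0363). It also did with the endothelial score as a covariate (adjusted p 0.0127). The 4 tested IFIT genes, which bind foreign RNA ends, had adjusted p from 0.0707 (Ifit3) to 0.593 (Ifit3b) in limma. Ifit3 passed as lower when Saline 7 (adjusted p 0.0459) or Saline 8 (adjusted p 0.00658) was left out. Without both, Ifit3b had a log2 fold change of -0.60 (adjusted p 0.000303 in limma) against -0.19 with all samples. Saline 7 and Saline 8 held the lowest saline values of Ifit3 (9.80 and 6.66 FPKM) and of Ifit3b (1.71 and 0.504 FPKM). Leaving them out could thus only move these fold changes downward. Over all tested genes 26.6% passed as lower without Saline 7 and Saline 8. Ifit3 and Ifit3b are near copies, at 6.66 to 20.2 and 0.504 to 6.47 FPKM with saline. Isg15, a ubiquitin-like modifier, and Usp18, which removes it, had log2 fold changes of -0.06 ± 0.27 and -0.18 ± 0.26 (SE), and the antiviral GTPase Mx1 had 0.27 ± 0.28. All 3 genes had their highest value in Ang II 1.

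All 6 tested genes of the IFI200 family, DNA-binding proteins encoded in a cluster on chromosome 1, had positive values, and 1 of them rose. Over all tested genes 5917 of 15007 were positive and 9.54% rose. The sign rested in part on 1 sample: without Ang II 1, 4 were positive and 2 negative, and the median log2 fold change of the 6 went from 0.33 to 0.08. Ifi207 had 0.171 to 1.15 FPKM with saline (median 0.358) and 0.579 to 5.87 with Ang II (median 1.05), a log2 fold change of 0.67 ± 0.25 (SE, adjusted p 0.0474 in limma). The saline values rest on 9 to 64 reads a sample. With the macrophage score as a covariate the value was 0.07 and the adjusted p 0.736. Ifi204 had 0.102 to 1.25 (median 0.593) and 0.641 to 11.7 FPKM (median 0.940), a log2 fold change of 0.70 ± 0.34 (SE), and did not pass.

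**Figure D3:**
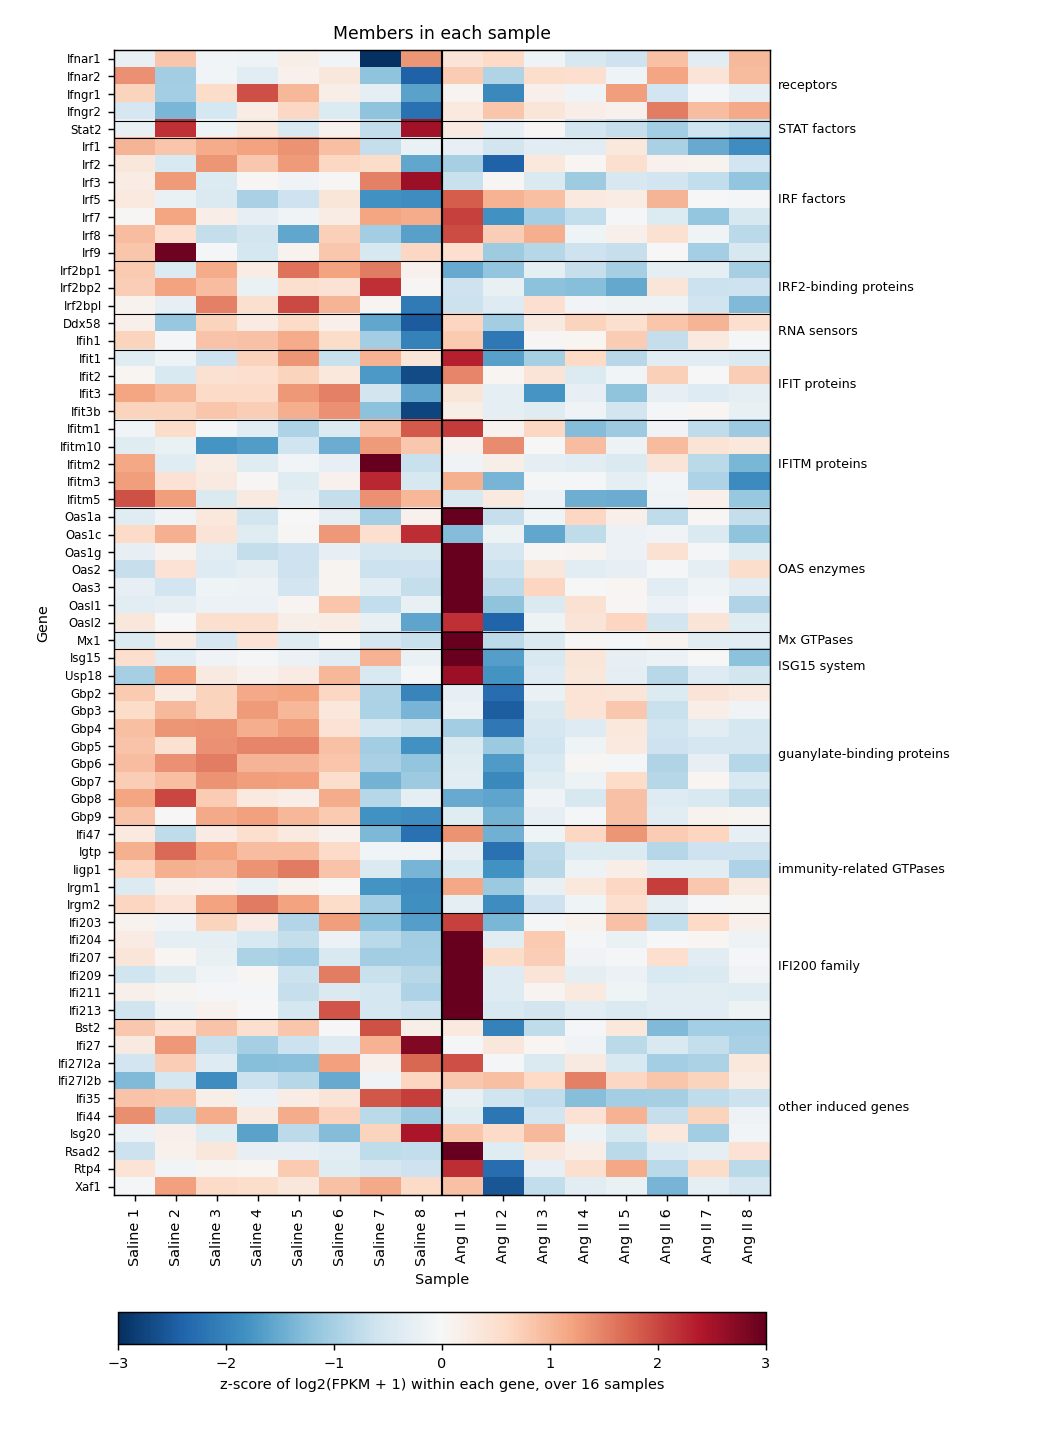
Level of 65 tested members (rows, grouped by class) in the 16 samples (columns), as z-scores of log2(FPKM + 1) within each gene. The OAS and IFI200 genes are highest in Ang II 1, with Oas1c as an exception, and the guanylate-binding proteins are low in Ang II 2.

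For many antiviral genes single samples stood out. Ang II 1 was the highest of all 16 samples for 25 of the 67 tested members (37.3%), where it was the highest for 6.33% of all tested genes. Ang II 2 was the lowest sample for 25 members (37.3%), some of them the same genes, against 5.71% of all tested genes. Saline 8 was the lowest for 18 members (26.9%), close to its 27.0% of all tested genes. Both Ang II samples were singled out after their values were seen.

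In 13 members, Ang II 1 held at least 2 times the level of any other sample, 19.4% of those tested against 0.9% of all tested genes. The filter on mean FPKM included Ang II 1. Low members such as Oas1g and Oas3, with means of 0.537 and 0.518 FPKM over the 16 samples, reached it only with this sample. These shares, and those of highest values above, were thus in part set by the values they describe. The 13 members were picked by their values in Ang II 1. They were Oas1a, Oas1g, Oas2, Oas3, Oasl1, Oasl2, Mx1, Isg15, Rsad2, Ifi204, Ifi207, Ifi209 and Ifi211. Mx1 had 5.49 FPKM (140 reads) in Ang II 1 and 0.0784 to 0.561 in the other Ang II samples, and 0.125 to 0.790 with saline. Oas2 had 8.23 FPKM in Ang II 1 and at most 1.08 in any other sample, and Ifi211 had 6.18 against at most 0.802. For Rsad2 (viperin, which blocks viral RNA synthesis) the values were 4.48 FPKM (198 reads) in Ang II 1 and 0.205 to 0.874 in the other 15 samples. Isg15 had 20.04 FPKM in Ang II 1, 2.35 to 6.47 in the other Ang II samples and 4.69 to 8.80 with saline.

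None of the GTPase genes was among the members that were high in Ang II 1 in this way, though their values in Ang II 1 were mixed. Gbp4 had 2.45 FPKM there, the second lowest of the Ang II group, and Igtp had 4.64, the highest of that group and still below every saline sample. Ifi47 had its highest value of all 16 samples in Ang II 1, 12.5 FPKM, next to 12.3 in Ang II 5. Of the 13 members that were high in Ang II 1, 10 had a promoter in the RefSeq table, and 7 of the 10 held the GAAANNGAAA core, including Isg15 and Rsad2 printed above. Some marker lists of leukocytes were highest in Ang II 1 and others were not. The neutrophil markers summed to 129 FPKM in Ang II 1 and at most 46.7 in the other Ang II samples, the markers of all leukocytes to 248 against at most 130, and the macrophage and monocyte markers to 765 against at most 392. Of the neutrophil markers, S100a8 (56.8 FPKM), S100a9 (50.2) and Csf3r (20.1) were high there, while Ly6g (0.199) and Retnlg (1.39) lay within the saline range. The dendritic cell markers summed to 16.5 FPKM in Ang II 1 and 25.2 in Ang II 3. Those of T and NK cells (5.45 FPKM in Ang II 1) and of B cells (2.51) were highest in Saline 6, at 7.94 and 40.3 FPKM. Saline 1 had 727 FPKM of the macrophage and monocyte markers, with 0.255 FPKM of Mx1 and 0.128 of Oas2. Lyz2 was 404 FPKM in Saline 1 and 414 in Ang II 1, and C1qa, C1qb and C1qc were higher in Saline 1. Ccr2 was 0.0976 FPKM in Saline 1 and 17.1 in Ang II 1, Itgam 0.685 and 9.31, and the neutrophil sum 1.75 and 129. These samples thus differed in the markers behind their sums. The part of leukocytes in the antiviral levels was not tested. Without Ang II 1, Mx1 had a log2 fold change of -0.02, and 4 members rose and 13 fell.

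**Figure D4:**
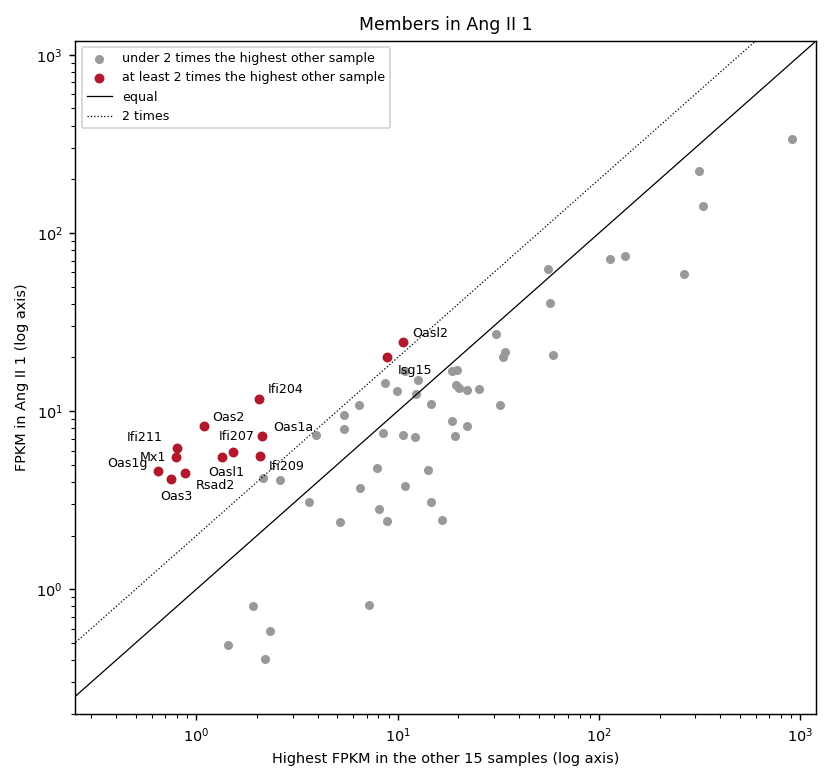
FPKM of 65 tested members in Ang II 1 (vertical, log axis) against the highest value among the other 15 samples (horizontal, log axis). The 13 labelled members in red lie above the dotted line of 2 times, with Mx1 at 5.49 against 0.790 FPKM.

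Within a treatment, the level of Irf7 was compared with that of each of the other 66 tested members over 8 samples, 132 comparisons in all. None passed an adjusted p of 0.05 in the exact two-sided permutation test for Pearson's r or for Spearman's rho. At an unadjusted p under 0.05 there were 24 for Pearson's r and 17 for Spearman's rho with saline, and 17 and 3 with Ang II. In the Ang II group Mx1 had r = 0.94 (exact permutation p 0.00201, adjusted p 0.0570) and rho = 0.79 (exact permutation p 0.0279, adjusted p 0.205). Without Ang II 1 and Ang II 2, the samples farthest from the median of Irf7, r for Mx1 was 0.57, and none of the 66 members reached an unadjusted p of 0.05. Isg15 went from r = 0.88 to -0.23 in that step, so its positive r was not seen among the other 6 samples. The step also narrows the range of Irf7, which can by itself make r smaller. It therefore cannot show whether the relation in the Ang II group rests on those 2 samples. With saline most correlations were negative, 23 of 66 being positive with a median r of -0.32. Irf7 itself was 10.8, 10.8 and 10.5 FPKM in Saline 2, Saline 7 and Saline 8, which stood apart over all genes. It was at most 6.49 FPKM in the other saline samples. Without Saline 2 and Saline 7, the farthest there, 22 members reached an unadjusted p of 0.05 and 17 were positive, with a median r of -0.50. That step kept Saline 8, so it cannot show whether these correlations rest on that sample. Correlations of Irf7 with genes outside the set were not computed.

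**Figure D5:**
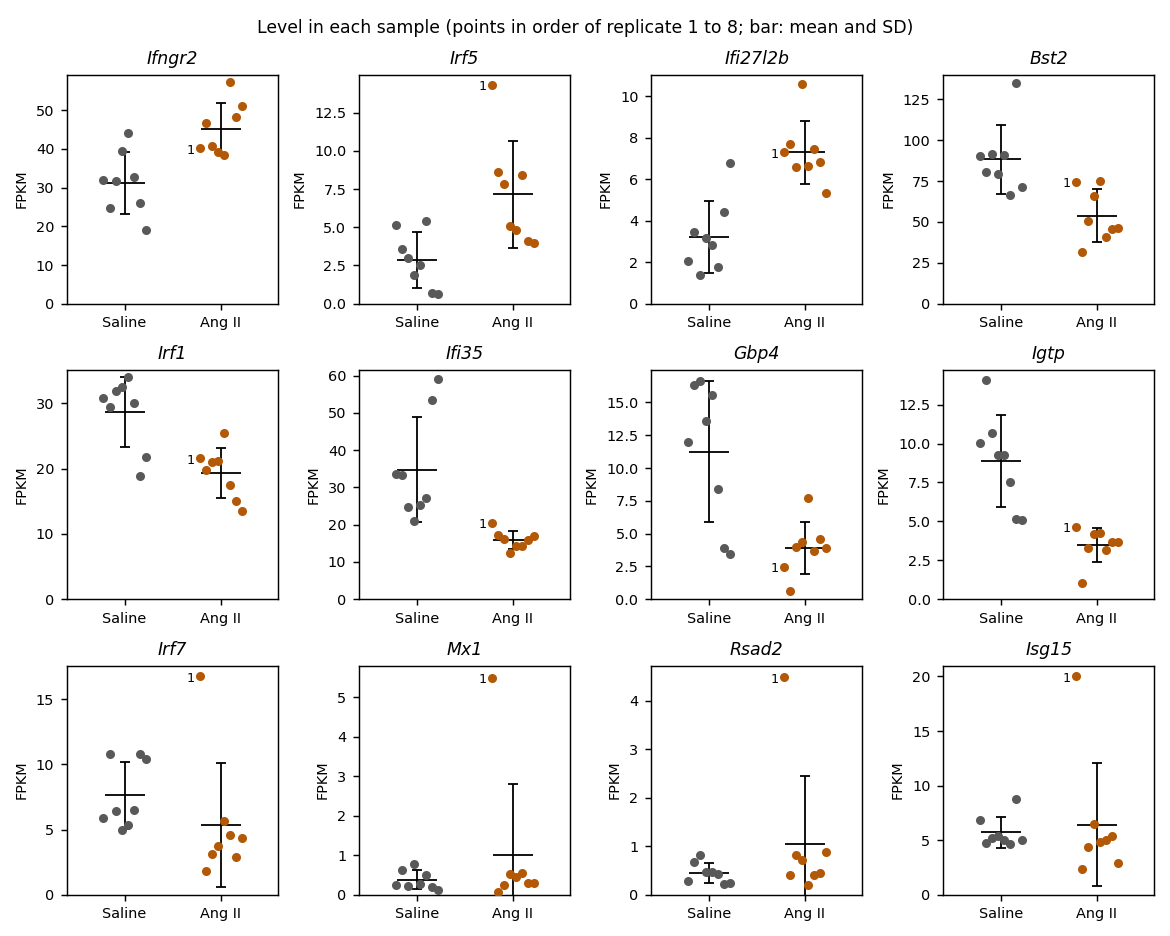
FPKM of 12 members in each of the 8 saline and 8 Ang II samples, with mean and SD as bars and Ang II 1 marked. Igtp and Ifi35 do not overlap between the groups, while Mx1, Rsad2, Isg15 and Irf7 each have their highest value in Ang II 1.

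The rest of the pathway was read from lists outside the set. None of the 21 interferon ligand genes reached the level for testing, and 12 were listed at 0 in every sample. Of 18 tested Janus kinases, other STATs and inhibitors, 6 fell and the other 12 did not pass, where 24.9% of all tested genes fell and 9.54% rose. Stat5b, a STAT of growth hormone and cytokine receptors, had 19.6 to 24.4 FPKM with saline (median 22.5) and 10.7 to 16.2 with Ang II (median 15.1), without overlap (log2 fold change -0.60 ± 0.09 SE, adjusted p 0.000144 in limma). The STAT inhibitors Pias3 and Pias1 fell by 0.38 and 0.38 on the log2 scale.

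Of 24 tested genes of nucleic acid sensing, 1 rose and 3 fell, where 9.54% and 24.9% of all tested genes did. Tlr7, an endosomal RNA receptor of leukocytes, had at most 1.37 FPKM with saline (median 0.539) and 0.850 to 5.88 with Ang II (median 1.29), a log2 fold change of 0.84 ± 0.26 (SE, adjusted p 0.018 in limma). Mavs, the adaptor of RIG-I and MDA5, fell from 18.0 to 24.5 FPKM (median 20.6) to 11.6 to 17.1 FPKM (median 14.7) without overlap (adjusted p 0.00126 in limma). Rnaseh2c and Rnaseh2a, subunits of the nuclease that removes RNA from DNA hybrids, fell by 0.64 and 0.58 on the log2 scale.

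Of 45 other tested interferon-stimulated genes, 3 rose and 11 fell, where 9.54% and 24.9% of all tested genes did. Tap2, a subunit of the transporter that loads MHC class I with peptide, had 22.4 to 44.1 FPKM with saline (median 26.9) and 9.77 to 13.7 with Ang II (median 12.2), without overlap (log2 fold change -1.22 ± 0.13 SE, adjusted p 4.4e-06 in limma). The immunoproteasome subunit Psmb10 fell by 0.88 and tapasin (Tapbp) by 0.49 on the log2 scale, also without overlap. Slfn9 (0.68), Lgals3bp (0.57) and Ms4a6d (1.58) rose on the log2 scale. Ms4a6d, a gene of macrophages, had 0.158 to 6.77 FPKM with saline and 1.38 to 50.4 with Ang II.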

How the data were processed

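The authors deposited 1 table of FPKM for 16 aorta samples (total RNA by Trizol, mRNA libraries, per the labels' protocols). GRCm38 (mm10) is the genome named in the submitters' processing notes. Not given in the sources used here were aligner, counting tool and use of strand. Coordinates and gene types are those of the deposited table. Groups and numbers came from the sample titles. Members were chosen by gene name and type, and members, classes, pathway lists and marker lists were all chosen with earlier results of these data known. Genes with a mean of at least 0.5 FPKM were compared between the 2 groups on log2(FPKM + 1) with limma (version 3.58.1, R 4.3.3, trend on mean level, no covariate). Fold changes on this scale understate the change of low genes. Named genes were the 12 called members with the smallest adjusted p in each direction, the receptors, STATs and IRFs, and up to 3 genes higher and 3 lower from each pathway list, with the others by class. Reads were recovered from the FPKM with mean transcript lengths of GENCODE M21 for 30469 of 31423 genes above 0, and 95.8% to 96.3% of values came out whole within 0.02 of a read. They gave the read numbers and a voom test, chosen after seeing the data, which called 4 members higher and 11 lower. Scripts were tested on simulated data. Alternatives were another pseudocount, other filters, scalings and tests, sample weights, marker scores as covariates, the replicate number as a block and leaving samples out. Counts cover all tested members, and results of some single genes are not reported here.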

Additional observations from a re-analysis of the deposited data

Results flagged for a closer look

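In 25 of 130 gene-by-treatment groups of 8 samples, 1 sample lay apart from the others by Dixon's test at the 95% level, which chance flags in about 1 of 20 groups. The groups share their samples and are not independent, and the share over all tested genes was not computed. The count is therefore no result about the members. Some genes, such as Oas1g and Oas3, also passed the filter on mean level only with the flagged value. Of the 25 flags, 15 were high values in Ang II 1: Irf7 16.8, Oas1g 4.63, Oas2 8.23, Oas3 4.17, Oasl1 5.55, Mx1 5.49, Isg15 20.04, Ifi204 11.7, Ifi207 5.87, Ifi209 5.59, Ifi211 6.18, Ifi213 4.20, Ifi27l2a 62.8, Rsad2 4.48 and Oas1a 7.195 FPKM. Low values in Ang II 2 made up 4 of them, Ddx58 at 10.2, Gbp2 at 4.89, Gbp3 at 2.28 and Igtp at 1.05 FPKM. Saline 2 was high for Irf9 (19.4 FPKM), and Saline 6 for Ifi209 (2.07 FPKM) and Ifi213 (2.15 FPKM, 79 reads). Saline 7 was high for Bst2 (135 FPKM) and low for Ifnar1 (16.7 FPKM), and Saline 8 was low for Oasl2 (2.88 FPKM). In Saline 6 the 4 B cell markers also summed highest of all samples, to 40.3 FPKM against at most 5.30 in the others, and their part in the values of Ifi209 and Ifi213 was not tested.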

How the results depend on the processing

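Of the 18 members called, 9 (among them Irf1, Irf2bp1, Oas1c, Igtp, Bst2, Ifi27l2b and Ifi35) were called under each of 30 alternatives. No called member changed sign under any of them. Ifitm5 and Gbp6 were called in 8 of 29 each and Ifi207 in 14 of 30. The number of members higher was 4, and it was 8 with scaling by median ratios. With marker scores as covariates it was 2 (macrophages), 7 (endothelial cells) and 2 (adipocytes). The number lower was 14, and it was 25 with sample weights, 23 without Saline 7 and Saline 8, and 22 without Saline 2 as well. Leaving out each sample in turn gave 3 to 4 higher and 12 to 18 lower. With median ratio scaling, 18 correlations with Irf7 passed an adjusted p of 0.05 (exact permutation) with saline and 2 with Ang II, where none did before. The cause of these shifts was not tested. With the replicate number as a block (replicate block), 6 members were higher and 13 lower. The numbers were not taken to pair the samples: same-numbered samples correlated at -0.246 to 0.385, and 5 of 16 samples correlated best with their own number. Depth limits the low genes: 1 read in 1 kilobase was worth 0.05003 to 0.06846 FPKM.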
